A study of Drosophila melanogaster with 6 samples.

Results

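Muscle formation in Drosophila is directed by a small set of transcription factors, and 10 of them, chosen by symbol as regulators of muscle differentiation and of adult muscle progenitors, were followed here: Mef2, lmd, twi, nau, Him, zfh1, vg, ct, eya and salm. They are 10 of the 17807 genes in the deposited table. RNA was sequenced from muscle-enriched lysates of late larvae of the third instar, about 90 h old, in 2 genotypes with 3 libraries each, every library holding 7 to 10 pooled larvae. The tmodRNAi larvae were UAS-dcr2;;Dmef2-Gal4>UAS-tmodRNAi, so a hairpin against tmod, which encodes the actin pointed-end cap tropomodulin, was expressed under the Mef2 promoter. The mCherryRNAi larvae were UAS-dcr2;;Dmef2-Gal4>UAS-mCherryRNAi, with a hairpin against a fluorescent protein that flies lack. Both genotypes carry the Mef2-driven Gal4 and the Dicer-2 transgene, so an effect of either of these on the 10 genes cannot be measured here. The labels call the samples biological replicates. One label gives the tissue as adult musculature, but the growth protocol is for larvae.

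As background, twi encodes the bHLH factor that specifies mesoderm, and its expression is kept in the adult muscle progenitors, the undifferentiated myoblasts that larvae carry for building adult muscle. In the embryo lmd, a zinc-finger factor of the Gli family, is required in fusion-competent myoblasts and activates Mef2, the MADS-box factor that in turn switches on contractile genes. Him and zfh1 encode repressors that hold progenitors back from differentiating, nau encodes the fly member of the MyoD family, and vg, ct, eya and salm encode regulators used in muscle and also in other tissues such as imaginal discs, sense organs and trachea.

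Recovered reads per library ranged from 83824273 to 110151028. tmod itself had 13993, 13734 and 12980 normalized counts in tmodRNAi replicates 1 to 3, against 70528, 92366 and 75101 in mCherryRNAi replicates 1 to 3 (log2 fold change -2.54, SE 0.12, adjusted p = 0.0045, limma). With a library left out, tmod passed in 3 of 6 fits and missed at adjusted p-values of 0.080 to 0.103 without tmodRNAi replicate 2 or 3 or mCherryRNAi replicate 3 (limma). mCherryRNAi replicate 1 stands apart from the other controls: the summed counts of 7 muscle markers were 6098642, 6593030 and 7068673 in tmodRNAi replicates 1 to 3, and 4065592, 1204968 and 1651445 in mCherryRNAi replicates 1 to 3. The values of the 10 genes and the counts over the related lists are therefore also given without that library. These are bulk lysates, in which fewer cells of a type and less RNA per cell cannot be told apart. Markers of other tissues were present as well. Epidermis markers summed to 12135935, 12107483 and 9986400 normalized counts in tmodRNAi replicates 1 to 3, and 14242562, 5433760 and 7345825 in mCherryRNAi replicates 1 to 3. These sums were above those of the muscle markers in every library. In these sums mCherryRNAi replicate 1 thus stood apart from the other controls in epidermis too, and in trachea markers, at 350328 against 94554 and 109758. Not every marker followed its sum. The trachea markers trh and btl had 1444 and 937 in that library. They had 1808 and 1256 in mCherryRNAi replicate 2, and 1767 and 1333 in replicate 3. The epidermis marker vvl had 9070 there, against 12420 and 13763. The other markers of both lists were higher in that library than in the other controls. Fat body markers summed to between 306307 and 983907 normalized counts in tmodRNAi and between 167903 and 269095 in mCherryRNAi. Of those 7 markers 3 rose, where 10.9% of all tested genes rose. Fbp1, another of the 7, had a log2 fold change of -0.50 that did not pass (adjusted p = 0.48, limma). Wing disc epithelium markers summed to between 7719 and 9268 in tmodRNAi and between 5553 and 5919 in mCherryRNAi. Of those 7 markers 4 rose, beside the same 10.9% of all tested genes. The others, nub, wg and ap, did not pass (adjusted p = 0.055, 0.73 and 0.40, limma). The sum of the glia markers went the other way, at 35503 to 42968 in tmodRNAi and 62255 to 143209 in mCherryRNAi. Most of it came from Gs2, at 33187 to 40948 in tmodRNAi and 59131 to 139210 in mCherryRNAi. Of those 3 markers 2 fell, Gs2 and moody, where 12.9% of all tested genes fell. The glia marker repo was instead higher in every tmodRNAi library, with 271, 358 and 287 normalized counts against 227, 162 and 217 in mCherryRNAi. For repo the log2 difference was 0.60, short of the threshold (adjusted p = 0.064, limma). The part of these tissues in the results below was not tested.

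The levels of the 10 genes were first set in order within each genotype, as normalized counts divided by the length of the merged exons in kb. Mef2 was highest in both, with 1583 ± 51 per kb in tmodRNAi and 2346 ± 612 per kb in mCherryRNAi (SD, n = 3 each), and its libraries did not overlap those of the next gene, zfh1, in either genotype. zfh1, ct and salm followed in both genotypes. zfh1 and ct overlapped in tmodRNAi, at 622 ± 115.4 and 550 ± 29 per kb, and did not overlap in mCherryRNAi, at 823 ± 140 and 603 ± 20 per kb. Below salm the order differed. lmd stood just under salm in tmodRNAi with 252 ± 91 per kb, overlapping salm at 343 ± 60, and stood last in mCherryRNAi with 16.7 ± 3.2 per kb, overlapping Him above it at 27.3 ± 12.8. In mCherryRNAi eya, nau and twi formed a run in which each gene overlapped the next, from 134 ± 35 to 96.8 ± 9.9 per kb.

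**Figure D1:**
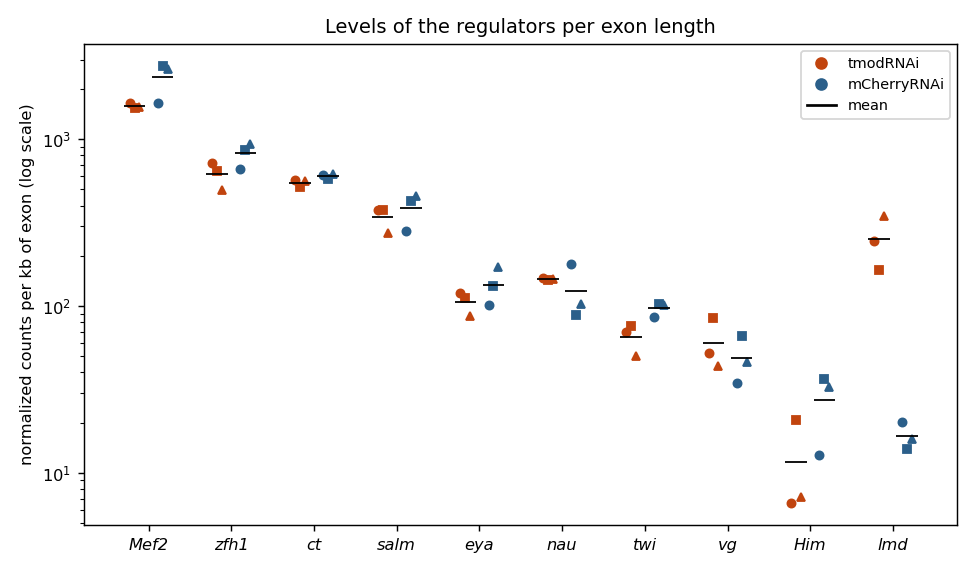
Normalized counts per kb of merged exon (log axis) for the 10 regulators in tmodRNAi (left of each pair) and mCherryRNAi libraries; circles, squares and triangles are replicates 1, 2 and 3, and black lines are means. Mef2 is highest in both genotypes, and lmd comes after salm in tmodRNAi and is last in mCherryRNAi.

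The question the comparison addresses, from the series title, is how larval muscle degenerates once Tmod is depleted. All 10 genes passed the filter, a mean over the 6 libraries of no less than 10 normalized counts, and were tested. At an adjusted p-value under 0.05, 1 of the 10 rose, lmd, and 0 fell. By comparison, 23.8% of the 10969 tested genes passed, 10.9% of them as higher and 12.9% as lower in tmodRNAi. At an unadjusted p-value under 0.05 the count was 3 of 10, with Mef2 and twi added, against 44.7% of all tested genes. edgeR's quasi-likelihood test also called 1 of the 10, lmd, against 22% of all genes (9.13% higher, 12.9% lower). DESeq2 called 3, lmd as higher and Mef2 and twi as lower, against 39.9% of all genes (18.5% higher, 21.4% lower). Without mCherryRNAi replicate 1, limma called 5 of the 10, with lmd and nau higher and Mef2, twi and zfh1 lower, in a fit where 47.4% of all genes passed (22.5% higher, 25% lower). The libraries of the genotypes did not overlap for 4 of the 10 genes, lmd, Mef2, twi and ct, against 51.4% of all tested genes (25% higher, 26.4% lower). The median log2 fold change was -0.25 over the 10 genes and 0.02 over all tested genes.

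**Figure D2:**
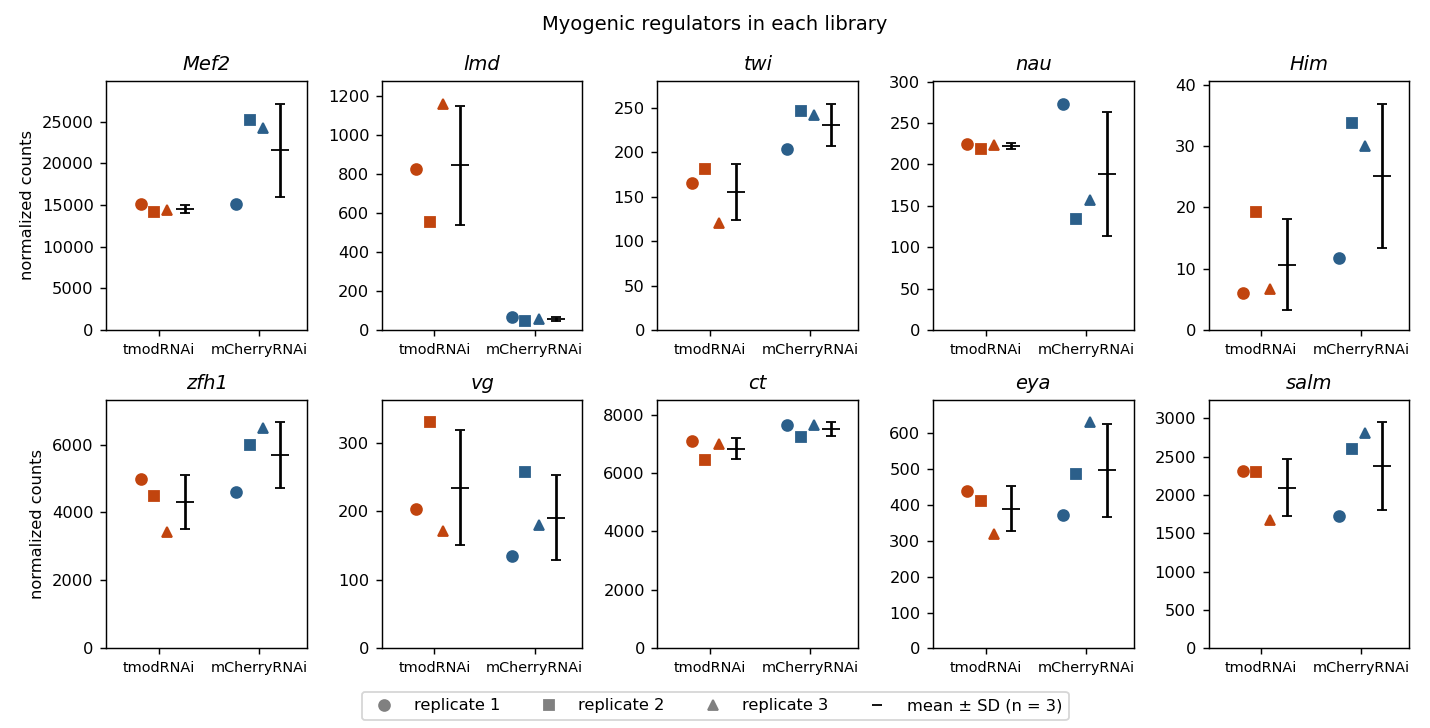
Normalized counts of each of the 10 regulators in the 3 tmodRNAi (left) and 3 mCherryRNAi libraries (right), each panel on its own linear axis from 0, with the mean ± SD (n = 3) beside the points. For lmd the tmodRNAi libraries lie between 552 and 1161 and the mCherryRNAi libraries between 46.7 and 67.6; for Mef2 and nau the circle of mCherryRNAi replicate 1 lies apart from the other controls.

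lmd, the myoblast factor that acts upstream of Mef2 in the embryo, rose. It had 823, 552 and 1161 normalized counts in tmodRNAi replicates 1 to 3, against 67.6, 46.7 and 53.4 in mCherryRNAi replicates 1 to 3. All tmodRNAi libraries were far above all controls, mCherryRNAi replicate 1 included, and the spread within tmodRNAi was about as wide as its lowest value. The mean was 845 ± 305 in tmodRNAi and 55.9 ± 10.7 in mCherryRNAi (SD, n = 3 each), a ratio of means of 15.1. These means rest on between 518 and 1053 reads per library in tmodRNAi and between 50 and 69 in mCherryRNAi. The log2 fold change was 3.85 (SE 0.30, 95% interval 3.11 to 4.58, adjusted p = 0.026, limma), the 97th highest of the 10969 tested genes. It was 3.99 without mCherryRNAi replicate 1 (adjusted p = 0.00039), and the difference from that library alone was 3.56. The adjusted p-value was 0.041 without tmodRNAi replicate 1. It was between 0.077 and 0.12 without tmodRNAi replicate 2 or 3 or mCherryRNAi replicate 2 or 3, fits in which 0 to 2 of all genes passed, with lmd at log2 fold changes of 3.58 to 4.12.

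lmd (FBgn0039039) is a minus-strand gene of chromosome 3R (BDGP6.54, 23021222 to 23026713), and no other annotated gene lies within its span. Its nearest protein-coding neighbours are given for their position. CG6688, which ends 5746 bases away, had 44.4, 63.9 and 22.1 normalized counts in tmodRNAi and 18.6, 16.9 and 12.8 in mCherryRNAi, a log2 difference of 1.27 that did not pass (adjusted p = 0.081, limma). CG13833, which lies 6570 bases away on the other side, fell, with 140, 98.0 and 150 normalized counts in tmodRNAi against 224, 676 and 657 in mCherryRNAi (log2 fold change -1.85, adjusted p = 0.041, limma).

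Mef2, the activator of contractile genes whose promoter drives the transgenes, was steady across the knockdown libraries and spread across the controls. It had 15072, 14190 and 14362 normalized counts in tmodRNAi replicates 1 to 3, against 15082, 25268 and 24304 in mCherryRNAi replicates 1 to 3. The genotypes did not overlap, but mCherryRNAi replicate 1 stood only 10.4 normalized counts above the highest tmodRNAi library. The mean in tmodRNAi was 67.5% of that in mCherryRNAi, and the log2 fold change of -0.53 (SE 0.21, 95% interval -1.03 to -0.03) did not pass (adjusted p = 0.099, limma). Without mCherryRNAi replicate 1 it was -0.77 (SE 0.06, adjusted p = 0.00042), and against that library alone it was -0.05. The size of the Mef2 difference thus rested on mCherryRNAi replicates 2 and 3, which were also the libraries with the lowest summed muscle markers. It also varied with the scaling: with quantile normalization of all libraries the log2 fold change was -0.35 (adjusted p = 0.18, limma).

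The 5 tested genes whose centred log2 values lay closest to those of Mef2 over the 6 libraries, out of 9190 genes averaging 50 normalized counts or more, were CG17712, CG2034, pasi2, GAPcenA and Tollo. Their root-mean-square differences from Mef2 were between 0.036 and 0.045 on the log2 scale. Each of them, like Mef2, had mCherryRNAi replicate 1 near the tmodRNAi libraries: pasi2 had 2047, 2060 and 2105 normalized counts in tmodRNAi and 2199, 3516 and 3512 in mCherryRNAi. Their log2 fold changes lay between -0.60 and -0.48, and none passed with all libraries (adjusted p of 0.070 to 0.12, limma). All 5 passed without mCherryRNAi replicate 1, as Mef2 did, with log2 fold changes of -0.83 to -0.71 (adjusted p of 0.00041 to 0.00077, limma). In that fit 47.4% of all genes passed. The 5 genes were picked for likeness to Mef2 over these same libraries, so the shared pattern and calls follow from the choice.

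Among the genes of the progenitor state, twi had 166, 181 and 120 normalized counts in tmodRNAi replicates 1 to 3, against 204, 247 and 243 in mCherryRNAi replicates 1 to 3. Every tmodRNAi library was below every control. The log2 fold change of -0.58 (SE 0.20, 95% interval -1.07 to -0.10) did not pass (adjusted p = 0.074, limma). It was -0.67 without mCherryRNAi replicate 1 (adjusted p = 0.048), and -0.80 with quantile normalization (adjusted p = 0.037). In all, twi passed in 2 of 11 settings other than leaving out a library, and in 1 of 6 fits with a library left out. Without tmodRNAi replicate 3 it was -0.41 (adjusted p = 0.17, limma). The exons of twi share bases with CG9897 and asRNA:CR42742, and both of these were at 0 in all 6 libraries.

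zfh1, the zinc-finger homeodomain repressor, had 4998, 4474 and 3430 normalized counts in tmodRNAi replicates 1 to 3, against 4611, 5980 and 6481 in mCherryRNAi replicates 1 to 3. The genotypes overlapped through mCherryRNAi replicate 1. The log2 fold change of -0.41 (SE 0.19) did not pass (adjusted p = 0.14, limma); it was -0.55 without that library, which passed (adjusted p = 0.036). zfh1 is also known from hemocytes. Of 9 hemocyte markers 4 fell (He, eater, srp and crq) and 2 rose (PPO1 and PPO2). Over all tested genes 12.9% fell and 10.9% rose. The hemocyte markers summed to 268808 to 339345 normalized counts in tmodRNAi and 202036 to 250630 in mCherryRNAi. The part of blood cells in the zfh1 values was not tested.

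Him, whose product inhibits Mef2 activity in progenitors, was the least abundant of the 10 genes in counts. It had 6.06, 19.2 and 6.62 normalized counts in tmodRNAi replicates 1 to 3, from 6, 18 and 6 reads, against 11.8, 33.8 and 29.9 in mCherryRNAi replicates 1 to 3, from 12, 42 and 28 reads. The genotypes overlapped, through tmodRNAi replicate 2 and mCherryRNAi replicate 1. The log2 fold change of -1.22 (SE 0.62, 95% interval -2.74 to 0.30) did not pass (adjusted p = 0.18, limma), nor did it without mCherryRNAi replicate 1 (-1.67, adjusted p = 0.069). With this SE, a difference of the size seen for Mef2 or twi would not have been detectable for Him.

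nau, the MyoD family member, had 224, 218 and 224 normalized counts in tmodRNAi replicates 1 to 3, against 273, 134 and 157 in mCherryRNAi replicates 1 to 3. The 3 knockdown libraries were within 1.03-fold of each other, whereas the controls lay on both sides of them, mCherryRNAi replicate 1 above and the other 2 below. The log2 fold change was 0.31 (SE 0.28, 95% interval -0.36 to 0.98, adjusted p = 0.42, limma). It was 0.61 without mCherryRNAi replicate 1 (adjusted p = 0.021), and -0.30 against that library alone, so its direction depended on which controls were used. Its exons share 405 bases with CG10300 on the opposite strand, which had at most 4.41 normalized counts in any library.

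The remaining regulators did not pass in any fit made. vg, a selector gene of wing cells that also acts in muscle, had 203, 330 and 171 normalized counts in tmodRNAi replicates 1 to 3, against 135, 257 and 180 in mCherryRNAi replicates 1 to 3. The genotypes overlapped and the spread within each was nearly 2-fold, so the log2 fold change of 0.29 had a 95% interval of -0.53 to 1.11 (adjusted p = 0.53, limma). It was 0.07 without mCherryRNAi replicate 1 (adjusted p = 0.88, limma) and 0.016 without tmodRNAi replicate 2 (adjusted p = 0.98, limma). In tmodRNAi replicate 2, where vg was highest, the summed markers of wing disc (9268), neurons (6782), eye disc (3264), fat body (983907) and trachea (429617) were also the highest of the 6 libraries. For trachea the lead was small, over 424475 in tmodRNAi replicate 1. The sums of the other cell types were highest in other libraries. In mCherryRNAi replicate 2, where vg was second highest at 257, the wing disc sum was 5919. That was below the 7719 and 8133 of tmodRNAi replicates 1 and 3, where vg was 203 and 171. The part of these tissues was not tested.

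ct, a homeodomain factor of direct flight muscle progenitors, trachea and sense organs, was the most evenly expressed of the 10 over the 6 libraries. It had 7106, 6430 and 6982 normalized counts in tmodRNAi replicates 1 to 3, against 7635, 7218 and 7641 in mCherryRNAi replicates 1 to 3. The genotypes did not overlap, but the log2 fold change was only -0.13 (SE 0.07, 95% interval -0.31 to 0.04, adjusted p = 0.20, limma), and it was 0.03 with quantile normalization. It was -0.12 without mCherryRNAi replicate 1 (adjusted p = 0.22, limma).

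eya, a phosphatase and coactivator that works with so, had 438, 410 and 320 normalized counts in tmodRNAi replicates 1 to 3, against 373, 485 and 631 in mCherryRNAi replicates 1 to 3 (log2 fold change -0.33, SE 0.23, adjusted p = 0.30, limma). salm, the zinc-finger selector of fibrillar flight muscle, had 2314, 2304 and 1670 normalized counts in tmodRNAi replicates 1 to 3, against 1731, 2601 and 2808 in mCherryRNAi replicates 1 to 3 (log2 fold change -0.17, SE 0.22, adjusted p = 0.59, limma). Both genes overlapped between genotypes, with mCherryRNAi replicate 1 the lowest control. Without that library their log2 fold changes were -0.52 and -0.38 (adjusted p = 0.072 and 0.0997, limma).

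**Figure D3:**
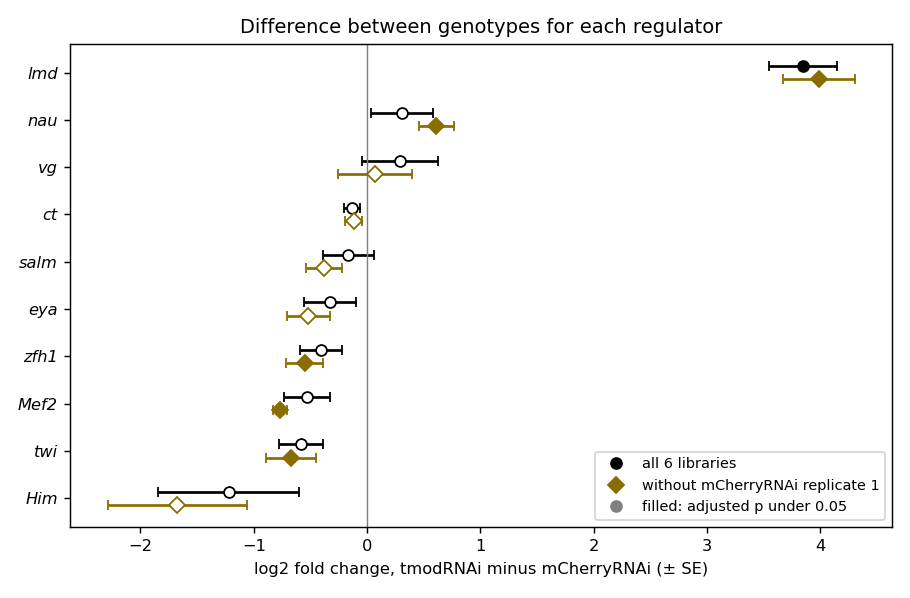
Log2 fold change, tmodRNAi minus mCherryRNAi, with its SE for each of the 10 regulators with all 6 libraries (black circles) and without mCherryRNAi replicate 1 (brown diamonds); filled symbols have an adjusted p-value under 0.05. lmd passes in both fits, at 3.85 and 3.99, and nau, zfh1, Mef2 and twi pass only in the fit without that control.

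Within mCherryRNAi, replicate 1 was below the mean of replicates 2 and 3 for 7 of the 10 genes and above it for lmd, nau and ct. The log2 differences, replicate 1 minus the mean of the other 2, ran from -1.36 for Him to 0.91 for nau, with a median of -0.50 over the 10 genes and -0.01 over all tested genes. In size, this difference was larger than the one between the genotypes for Mef2, nau, Him, zfh1, vg, eya and salm, and smaller for lmd, twi and ct. For lmd it was 0.43, against 3.85 between the genotypes.

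Genes that act with the 10 regulators were then counted. Mef2 target genes of muscle, a list of 23 contractile and structural genes, were mostly higher in tmodRNAi, while Mef2 itself had the log2 difference of -0.53 that did not pass. Of the 23, 13 rose, 1 fell and 9 did not pass, where 10.9% of all tested genes rose and 12.9% fell, with a median log2 fold change of 1.44 against 0.02 over all tested genes. Act87E, a muscle actin, had 349438, 345353 and 439304 normalized counts in tmodRNAi and 130078, 58941 and 52444 in mCherryRNAi (log2 fold change 2.35, adjusted p = 0.031, limma). TpnC47D and TpnC41C, which encode troponin C isoforms, rose, the first by 2.81 and the other by 1.29 on the log2 scale (adjusted p = 0.035 and 0.031, limma), and if, an integrin subunit of muscle attachments, rose by 0.85 (adjusted p = 0.034, limma). Reads may be shared among the closely similar actin genes, so the value of Act87E is uncertain.

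The single gene of that list that fell was betaTub60D, which encodes the tubulin isoform of developing mesoderm and was singled out after its values were seen. It had 7932, 6912 and 6415 normalized counts in tmodRNAi and 11059, 27740 and 21178 in mCherryRNAi (log2 fold change -1.40, adjusted p = 0.038, limma). Without mCherryRNAi replicate 1 the counts were 22 higher and 1 lower of 23, in the fit where 22.5% of all genes were higher and 25% lower. Against mCherryRNAi replicate 1 alone the median of the list was 0.58, and that library exceeded the mean of the other controls by a median of 1.23. The count also depended on the test, with 5 called by edgeR and 23 by DESeq2. Muscle markers as a whole were higher in tmodRNAi, as given above, and all 7 of them are in this list, and so the marker sums and the list counts are not independent.

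Genes of fibrillar flight muscle under the control of salm, a program of adult muscle, were nearly silent in part: fln was at 0 in all 6 libraries and TpnC4 was below the filter. The other 3 of the 5 rose, where 10.9% of all tested genes rose. bru1, an RNA-binding splicing regulator, had 622, 1022 and 775 normalized counts in tmodRNAi and 475, 339 and 382 in mCherryRNAi (log2 fold change 0.998, adjusted p = 0.034, limma). The flight muscle actin Act88F rose by 1.49 on the log2 scale and the myosin kinase-like gene Strn-Mlck by 1.16 (adjusted p = 0.043 and 0.045, limma). Act88F had 156 to 177 normalized counts in tmodRNAi and 34.2 to 99.99 in mCherryRNAi. These counts are far below those of Act87E. Reads may be shared among the actin genes, so the value of Act88F and its rise are uncertain too. All 3 passed without mCherryRNAi replicate 1, in the fit where 22.5% of all genes were higher and 25% lower. None passed in limma without the trend, edgeR called 1 of them and DESeq2 called 3.

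Other transcription factors of mesoderm and muscle identity formed a list of 29, of which 26 were tested. Of these 1 rose, 3 fell and 22 did not pass, so that 4 of 26 were called where 23.8% of all tested genes were (10.9% higher, 12.9% lower). The median log2 fold change was -0.09. slou, a homeodomain factor of founder myoblasts, fell, with 298, 198 and 175 normalized counts in tmodRNAi and 425, 632 and 730 in mCherryRNAi (log2 fold change -1.41, SE 0.28, adjusted p = 0.031, limma). abd-A, the Hox gene of the abdominal segments, fell, with 17698, 13427 and 11877 normalized counts in tmodRNAi and 22940, 39664 and 37906 in mCherryRNAi (log2 fold change -1.20, SE 0.26, adjusted p = 0.033, limma). pnr, a GATA factor of dorsal tissues, fell by 0.89 on the log2 scale, and Antp, a thoracic Hox gene, rose by 0.25 (adjusted p = 0.044 and 0.042, limma). The controls of slou and abd-A did not overlap the knockdown libraries even with mCherryRNAi replicate 1, against which alone the log2 differences were -0.96 and -0.70. Without that library 1 of the 26 was higher and 9 were lower, in the fit where 22.5% of all genes were higher and 25% lower.

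Notch signalling keeps adult muscle progenitors undifferentiated and is known to sustain twi there. Of 26 genes of the pathway, 24 were tested, 1 rose, 3 fell and 20 did not pass (median log2 fold change -0.25), against the same 10.9% higher and 12.9% lower over all tested genes. The 3 that fell all encode subunits of gamma-secretase, the protease that releases the active part of Notch. Psn had 5210, 4775 and 4512 normalized counts in tmodRNAi and 6470, 8248 and 7469 in mCherryRNAi (log2 fold change -0.61, adjusted p = 0.031, limma). Nct fell by 0.56 and aph-1 by 0.52 on the same scale (adjusted p = 0.032 and 0.031, limma). The fourth subunit gene, pen-2, had a log2 fold change of -0.32 that did not pass (adjusted p = 0.18, limma). Values as low as that of Nct were not limited to the subunits. numb and kuz, named after their values were seen, had -0.76 and -0.60, which did not pass (adjusted p = 0.070 and 0.12, limma). Without mCherryRNAi replicate 1 they had -1.05 and -0.87 and passed (adjusted p = 0.00039 and 0.0049, limma). Of the 24 genes, 10 were above 0 and 14 below. Ser, a Notch ligand, rose by 0.42 (adjusted p = 0.031, limma). N itself differed by 0.05 (SE 0.10, adjusted p = 0.70, limma). The target genes E(spl)m2-BFM and E(spl)mbeta-HLH, named after their values were seen, showed a wide control spread. E(spl)m2-BFM had 288, 285 and 249 normalized counts in tmodRNAi and 392, 2475 and 5220 in mCherryRNAi, and neither gene passed (adjusted p = 0.075 and 0.13, limma). Without mCherryRNAi replicate 1, 1 of the 24 genes was higher and 11 were lower, in the fit where 22.5% of all genes were higher and 25% lower.

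Partners and cofactors of the 10 regulators gave 2 genes that rose and 1 that fell of 15 tested out of 16 (median log2 fold change -0.03), beside 10.9% of all tested genes higher and 12.9% lower. dac, which acts with eya and so in eye development, had 783, 1218 and 883 normalized counts in tmodRNAi and 291, 496 and 277 in mCherryRNAi (log2 fold change 1.46, SE 0.28, adjusted p = 0.031, limma). HDAC4, a deacetylase that in mammals represses MEF2 factors, had 6700, 6674 and 6350 normalized counts in tmodRNAi and 5537, 4952 and 5034 in mCherryRNAi (log2 fold change 0.35, SE 0.07, adjusted p = 0.033, limma). exd, a Hox cofactor, fell by 0.32 on the log2 scale (adjusted p = 0.039, limma). The vg partner sd had a log2 fold change of 0.39 that did not pass (adjusted p = 0.052, limma), and the Twist partner da one of -0.44 (adjusted p = 0.054, limma). Without mCherryRNAi replicate 1, 3 of the 15 were higher and 6 were lower, in the fit where 22.5% of all genes were higher and 25% lower.

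**Figure D4:**
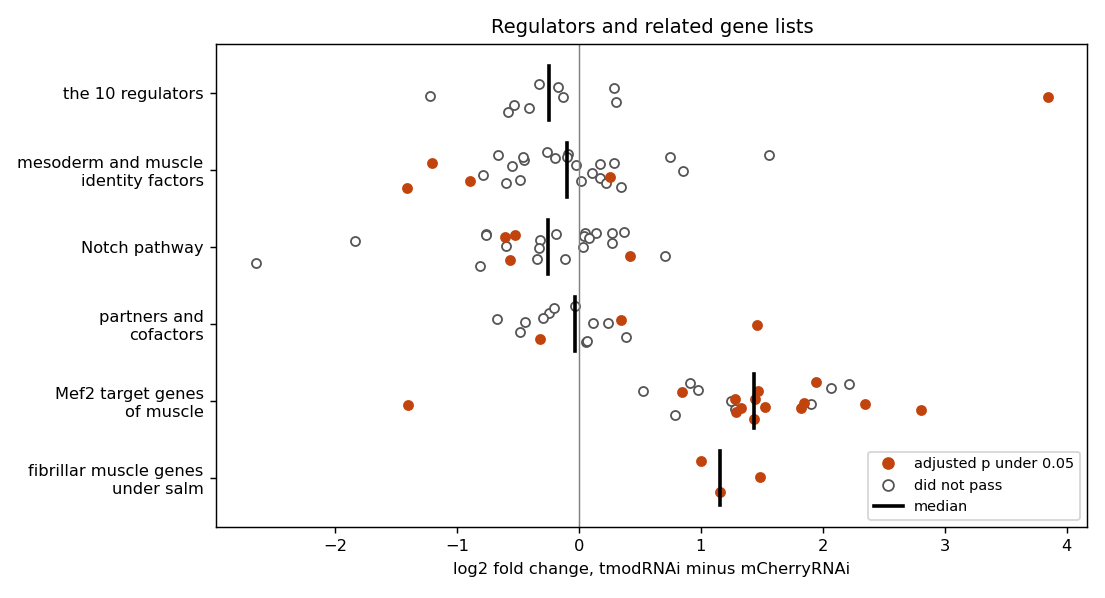
Log2 fold change, tmodRNAi minus mCherryRNAi, of each tested gene among the 10 regulators and 5 related lists (rows, with vertical scatter only to separate points); filled points have an adjusted p-value under 0.05 and black bars are medians. lmd lies at 3.85, apart from the other 9 regulators, and the Mef2 target genes have a median of 1.44 with betaTub60D at -1.40.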

How the data were processed

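The authors deposited one table of normalized counts for 17807 genes in 6 libraries, with no coordinates. The submitters' processing notes name DESeq2 1.30.1 and the build dm6; the aligner, counting tool, annotation and strand setting are not given in the sources used here. The deposited signal is a read count divided by 1 factor per library. In each column 100% of the values above 0 were whole multiples, within 0.01 reads, of 1 step, so whole reads were recovered. A floor of 3 reads corresponded to 2.41 to 3.31 normalized counts; such floors cover counting error only, since PCR copies of a molecule were not marked.

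Genes averaging 10 normalized counts or more were compared between the genotypes, as log2(normalized count + 1), by limma 3.58.1 with a trended prior in R 4.3.3. The added 1 understates changes of low genes. P-values are two-sided and Benjamini-Hochberg adjusted over the 10969 genes tested, with 0.05 as the threshold; intervals are unadjusted 95% intervals of the same fit. P-values measure the spread between these pooled libraries. An exact permutation test of 3 against 3 libraries cannot go below 0.1. Alternatives were other pseudocounts, filters and scalings (median centring, quantile, TMM), limma without the trend, edgeR 4.0.16 and DESeq2 1.42.0 on the recovered reads, the replicate number as a block, and leaving out each library.

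Exon lengths, positions and overlaps are from Ensembl BDGP6.54, the dm6 assembly, which held 17710 of the deposited identifiers and all 10 members. From each related list up to 4 genes past the threshold with the smallest adjusted p were named; others are named for their position or role, or as stated. The members and lists were chosen with earlier results of these data known. On simulated counts for 10969 genes in which 200 had a log2 change of 2, up or down, limma recovered 141 with 9 other calls, edgeR 144 with 7 and DESeq2 164 with 44. Each gene was drawn independently there, with no library set apart from its group. The simulated counts therefore do not give the error rate of the calls made here.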

Additional observations from a re-analysis of the deposited data

How the results depend on the processing

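The number of genes called was 2613 (1195 higher, 1418 lower) and became 954 in limma without the trend, 4380 in DESeq2 and 0 with the replicate block (3969 genes at an unadjusted p under 0.05); it ranged from 0 to 5203 when each library was left out. Of the 10 regulators 1 was called; this became 2 with quantile normalization (twi added), 3 in DESeq2 and 0 with the replicate block, and ranged from 0 to 5 with a library left out. tmod had a log2 fold change of -2.54, which no longer passed with the replicate block (-2.54, adjusted p = 0.096), and ranged from -2.62 to -2.42 with a library left out, passing in 3 of 6 such fits (adjusted p of 0.080 without tmodRNAi replicate 2, 0.103 without tmodRNAi replicate 3 and 0.087 without mCherryRNAi replicate 3). lmd was above 0 in every fit made and passed in 10 of 11 settings other than leaving out a library, missing with the block (adjusted p = 0.096). ct reversed with quantile normalization, to 0.030. Same-numbered libraries had correlations of -0.06, 0.02 and -0.02 between their deviations from the group means. Those of differently numbered libraries were between -0.077 and 0.096. Whether libraries of the same number were handled together cannot be told from these values. Calls in the related lists, main value first, were as follows. Muscle identity factors had 4, with 1 in limma without the trend, 10 in DESeq2, 0 with the block and 0 to 10 with a library left out. The Notch pathway had 4, with 10 in DESeq2, 0 with the block and 0 to 12 with a library left out. Partners and cofactors had 3, with 6 under median centring, 1 without the trend, 9 in DESeq2, 0 with the block and 0 to 9 with a library left out. Mef2 target genes had 14, with 6 without a filter, 6 with quantile normalization, 2 without the trend, 5 in edgeR, 23 in DESeq2, 0 with the block and 0 to 23 with a library left out. Fibrillar muscle genes had 3, with 0 without the trend, 1 in edgeR, 0 with the block and 0 to 3 with a library left out. The cause of these changes was not tested. Depth limits Him most, with 6 to 42 reads per library.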

Other observations

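Some muscle identity factors that did not pass in limma differed widely in value, and they were picked after their values were seen. Kr, a zinc-finger factor used in several embryonic muscles, had 119, 328 and 308 normalized counts in tmodRNAi replicates 1 to 3 and 45.1, 82.9 and 122 in mCherryRNAi replicates 1 to 3 (log2 difference 1.56, SE 0.52, adjusted p = 0.072, limma). The genotypes overlapped for Kr, through tmodRNAi replicate 1 and mCherryRNAi replicate 3. eve, a homeodomain factor of dorsal muscle, had 55.6, 75.6 and 43.0 normalized counts in tmodRNAi and 32.3, 27.4 and 33.1 in mCherryRNAi (log2 difference 0.85, adjusted p = 0.070, limma), with no overlap. The Hox gene Ubx had 3363, 3703 and 2788 normalized counts in tmodRNAi and 4046, 7068 and 6197 in mCherryRNAi (log2 difference -0.78, adjusted p = 0.053, limma), also with no overlap. Without mCherryRNAi replicate 1, Ubx passed (adjusted p = 0.0020), and Kr and eve did not (adjusted p = 0.094 and 0.081).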
